A study of Mus musculus with 6 samples.

Results

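The oligodendrocyte transcription factors Olig1, Olig2, Nkx2-2, Nkx6-2, Myrf, Zfp488, Zfp536, St18 and Prrx1 were followed in messenger RNA from the forebrains of 6 mice. The 9 genes were taken by name as known factors of the lineage, with earlier results of these data known. They were matched to the Ensembl identifiers of the deposited tables through GENCODE M21, and make up 9 of 35275 identifiers. All 9 had enough reads to be tested, among 16938 tested genes. All mice were C57BL/6 and 9 days old. Conditional knockouts (cKO) were 3 mice of the genotype Pdgfra-CreER:Parp1fl/fl, in which the promoter of Pdgfra, a receptor of oligodendrocyte precursors, drives a recombinase that tamoxifen switches on. The control group held 3 littermates with the floxed Parp1 gene and no Cre (non-Cre Ctrl, Parp1fl/fl). Both groups received tamoxifen intraperitoneally once daily on postnatal days 1 to 3, so an effect of tamoxifen itself is shared. Pdgfra is also expressed by fibroblasts, and controls carried no recombinase, so an effect of the Cre transgene cannot be told apart from loss of Parp1. RNA came from whole forebrain, in which fewer cells of a type and less RNA per cell cannot be told apart.

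Oligodendrocytes arise from proliferating precursors that stop dividing, pass through a premyelinating stage and then make myelin. Olig2 specifies the lineage together with its neighbour Olig1, and the homeodomain factor Nkx2-2 takes part in the timing of differentiation. Myrf is a membrane-bound factor that cleaves itself and enters the nucleus, where it switches on myelin genes together with the factor Sox10. The comparison asked whether these regulators differed in the forebrain when Parp1, which adds poly(ADP-ribose) chains to proteins, was deleted in the Pdgfra lineage.

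Library totals ran from 17262042 to 29310193 counts. Levels are in CPM, counts scaled to the library total after TMM correction, and values listed for a group are in the order of replicates 1, 2 and 3. The targeted gene Parp1 was at 90.8, 97.3 and 85.6 CPM in controls and at 80.8, 79.7 and 79.1 CPM in cKO mice. The groups did not overlap, but Parp1 was not called by edgeR (log2 fold change -0.19, adjusted p = 0.572). Control replicate 3 stood apart: its striatal genes summed to 325 CPM and its midbrain and hindbrain genes to 35.7 CPM, where the remaining 5 libraries held 955 to 1224 and 3.93 to 6.44 CPM. The Y-linked gene Ddx3y had 1123 counts in control replicate 1 and at most 1 elsewhere. Xist had 3 counts in control replicate 1 and 20196 to 27661 elsewhere. By these sex-linked genes, control replicate 1 was the only male library. Among markers of the labelled tissue, neuron and astrocyte genes were at like levels in both groups, at 6711 to 7291 and 4482 to 4928 CPM in sum.

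The promoters of 4 of the factors are shown first. These are the members with a log2 fold change at or under that of Olig2 and a matched RefSeq promoter window. The build is GRCm38.p6, the sequence of mm10. RefSeq promoter windows were matched for 6 of the 9 members, without Olig1, Myrf and St18. Each stretch ends just before the first base that GENCODE M21 or RefSeq places in an exon of the gene, within the 250 bases upstream of the RefSeq start site. Capitals mark every CANNTG, the E-box read by bHLH factors such as Olig2. The Nkx2-2 stretch lies in an intron of the longer annotated Nkx2-2 transcripts. Positions are chr16:91225300-91225456 on the plus strand for Olig2, and on the minus strand chr2:147186456-147186652 for Nkx2-2, chr7:139582798-139583047 for Nkx6-2 and chr14:33978765-33979014 for Zfp488.
Olig2: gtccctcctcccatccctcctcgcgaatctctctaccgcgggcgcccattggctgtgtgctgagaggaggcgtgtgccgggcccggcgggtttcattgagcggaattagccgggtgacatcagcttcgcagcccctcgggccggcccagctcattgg
Nkx2-2: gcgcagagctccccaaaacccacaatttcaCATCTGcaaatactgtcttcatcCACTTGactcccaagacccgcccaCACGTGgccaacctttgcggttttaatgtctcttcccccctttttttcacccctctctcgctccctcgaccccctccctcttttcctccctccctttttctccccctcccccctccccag
Nkx6-2: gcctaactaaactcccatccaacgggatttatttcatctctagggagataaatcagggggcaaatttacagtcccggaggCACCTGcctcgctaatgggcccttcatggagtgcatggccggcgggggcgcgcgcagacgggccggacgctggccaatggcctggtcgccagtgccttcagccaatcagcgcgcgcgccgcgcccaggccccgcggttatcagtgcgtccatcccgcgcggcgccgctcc
Zfp488: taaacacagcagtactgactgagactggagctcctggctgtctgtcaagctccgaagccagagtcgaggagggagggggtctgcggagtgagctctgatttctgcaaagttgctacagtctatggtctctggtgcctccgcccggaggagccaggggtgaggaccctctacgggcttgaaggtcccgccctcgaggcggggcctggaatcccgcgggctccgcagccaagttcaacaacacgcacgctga

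The Nkx2-2 stretch held 3 E-boxes. Among them, CACTTG is also the core read by NK2-class homeodomain factors, the class of Nkx2-2 itself, and starts 197 bases upstream of the start site. The Nkx6-2 stretch held 1 E-box, CACCTG, 170 bases upstream, and those of Olig2 and Zfp488 held none. Over the full 250 bases, searched on both strands, CANNTG was present in 66.2% and CACTTG in 11.6% of 32817 mouse promoter windows of the same length. The SOX-type word ACAATG was found once, in the Olig2 window 68 bases upstream and past the printed stretch, and is held by 10.7% of all windows. ACAAAG, another SOX-type word, was in none of the 6 windows and in 16.5% of all. A match of letters is a description and does not show binding.

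Of the 9 factors, Myrf, Zfp488 and Olig2 fell in cKO and none rose. Each was called by edgeR's quasi-likelihood test at an adjusted p under 0.05 over all 16938 genes, and 0.207% of all tested genes were called lower. The other 6 were not called. The log2 fold change was negative in 8 of 9 and at or below -1 in 4 of 9, as in 0.431% of all tested genes, with a median of -0.61 over the 9 genes against -0.0007 over all tested genes. Values of the 2 groups did not overlap, with cKO lower, in 6 of 9 factors, as in 5.86% of all tested genes. Before adjustment, 6 of 9 had a p under 0.05, all of them lower, against 2.75% of all tested genes. With DESeq2 in place of edgeR, 5 of 9 were called lower, Olig1 and Nkx2-2 in addition, where 0.366% of its tested genes were. As the 9 were chosen with earlier results of these data known, these counts are no independent evidence. The labels do not say that the mice came from separate litters, so the p-values measure the spread between these mice.

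**Figure D1:**
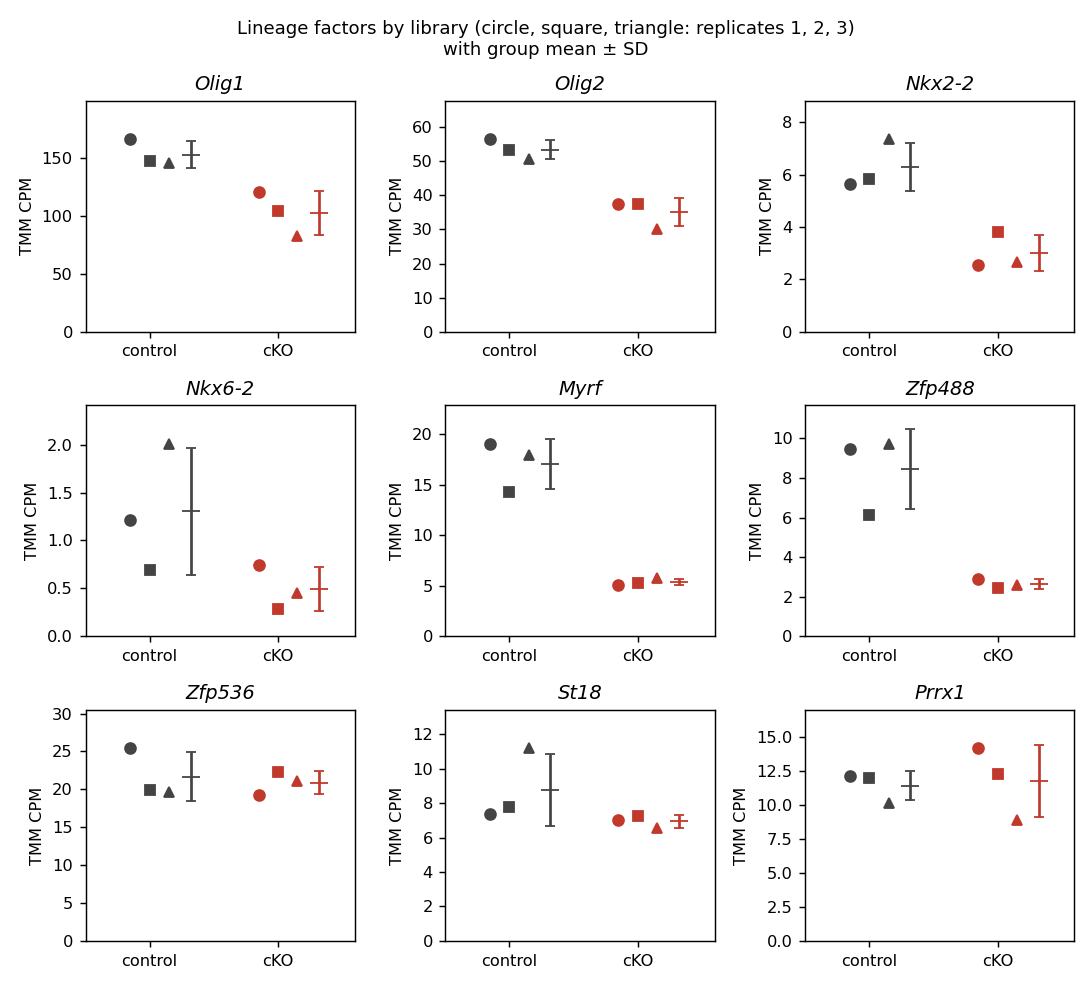
Level of each lineage factor in TMM-scaled CPM in every library (points; circle, square and triangle are replicates 1, 2 and 3) with the group mean ± SD (n = 3 mice each), every axis starting at 0. The 3 cKO points lie below all 3 control points for Olig1, Olig2, Nkx2-2, Myrf, Zfp488 and St18, and the groups overlap for Nkx6-2, Zfp536 and Prrx1.

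**Figure D2:**
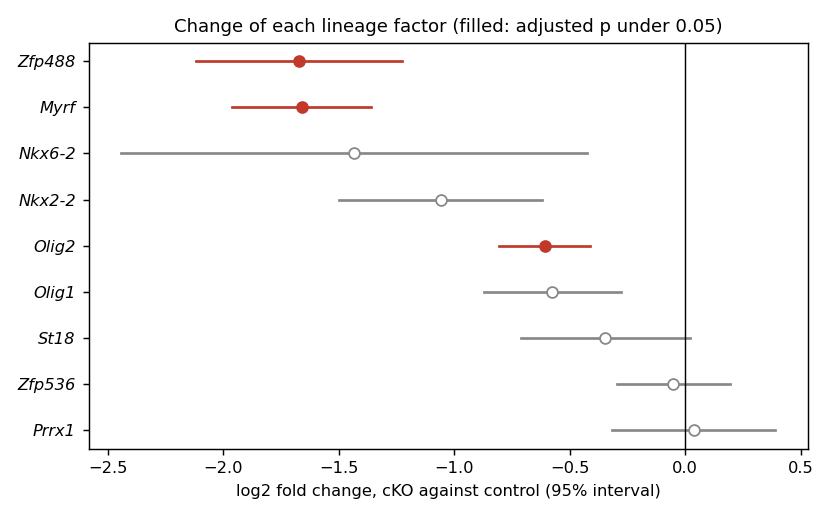
Log2 fold change of cKO against control (x axis) with its 95% confidence interval for each of the 9 factors, filled where the edgeR adjusted p was under 0.05. Myrf and Zfp488 lie near -1.7, the interval of Nkx6-2 is the widest of the 9, and those of Zfp536, St18 and Prrx1 include 0.

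Myrf (ENSMUSG00000036098, chromosome 19, 10208272 to 10240748, minus strand) had the smallest p of the 9. It stood at 19.1, 14.3 and 17.9 CPM in controls and at 5.08, 5.33 and 5.74 CPM in cKO mice. The highest cKO mouse was thus well under the lowest control, and the cKO mice lay closer together, with a coefficient of variation of 6.17% against 14.5%. Its log2 fold change was -1.66 (SE 0.139, 95% confidence interval -1.96 to -1.36, edgeR adjusted p = 1.18e-04), a 3.16-fold lower level. Myrf ranked 5 among all 16938 genes by p. It was the only factor of the 9 called in all 6 fits that left out a library and in all 12 other alternatives, with adjusted p up to 0.026.

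Zfp488 (ENSMUSG00000044519, chromosome 14, 33967070 to 33978764, minus strand), a zinc-finger repressor that works with Olig2, fell by a like amount to Myrf, with overlapping intervals. Its control values were 9.47, 6.12 and 9.72 CPM and its cKO values 2.91, 2.46 and 2.57 CPM, in replicate order. Control replicate 2 was the low control for Zfp488, as it was for Myrf, and still stood above every cKO mouse. This gave a log2 fold change of -1.67 (SE 0.205, interval -2.12 to -1.23, edgeR adjusted p = 0.00214). With 59 to 213 counts per library, its counting error was 6.85% to 13%. The call held without any single library (adjusted p up to 0.0285) and was lost on the FPKM scale with limma (log2(FPKM + 0.1), adjusted p = 0.0728).

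Olig2 (ENSMUSG00000039830, chromosome 16, 91225457 to 91228677, plus strand) was the third factor called. It was at 56.4, 53.1 and 50.7 CPM in the controls and 37.4, 37.5 and 30.2 CPM in the cKO mice, so that both groups were narrow and cKO replicate 3 was the lowest. The log2 fold change was -0.61 (SE 0.091, interval -0.81 to -0.41, edgeR adjusted p = 0.0116), which leaves 65.6% of the control level. The call was lost without control replicate 1 (-0.57, edgeR adjusted p = 0.0846), the only male library by its sex-linked genes. In that fit, where all libraries were female, 2 of the 9 factors were called lower. It was also lost with limma on log2(FPKM + 1) (-0.59, adjusted p = 0.102). In both fits the log2 fold change of Olig2 was of about the same size.

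Olig1 (ENSMUSG00000046160, chromosome 16, 91269772 to 91271933, plus strand), which promotes maturation and remyelination, lies downstream of Olig2 on the same chromosome. Its values were 166, 147 and 146 CPM in controls and 121, 105 and 83.3 CPM in cKO. The groups did not overlap, but the cKO mice were spread over a wider range than the controls (coefficient of variation 18.4% against 7.45%). Its change of -0.58 on the log2 scale (interval -0.87 to -0.28) was close to that of Olig2 and was not called (edgeR adjusted p = 0.268). Without cKO replicate 1, the highest of the 3, it was called at -0.71 (adjusted p = 0.0389), and DESeq2 called it with all 6 libraries (adjusted p = 1.70e-04). Its exons overlap those of Gm15966 on the opposite strand by 157 bp. Gm15966 had at most 5 counts in a library.

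Nkx2-2 (ENSMUSG00000027434, chromosome 2, 147177546 to 147194243, minus strand) was at 5.66, 5.84 and 7.35 CPM in controls and 2.57, 3.80 and 2.68 CPM in cKO. All cKO mice were below all controls. Its log2 fold change of -1.06 (interval -1.50 to -0.62) missed the threshold with edgeR (adjusted p = 0.0642) and passed with DESeq2 (adjusted p = 0.00193). It rested on 52 to 161 counts per library. The antisense gene Nkx2-2os, which overlaps its exons by 278 bp, had 7 to 19 counts per library, a log2 fold change of 0.19 and adjusted p = 0.959.

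Nkx6-2 (ENSMUSG00000041309, chromosome 7, 139579376 to 139582797, minus strand), a homeodomain factor of maturing oligodendrocytes, was the faintest of the 9. It had 21, 15 and 44 counts in the controls and 15, 7 and 13 in the cKO mice, or 1.21, 0.69 and 2.01 against 0.74, 0.283 and 0.452 CPM. Control replicate 3 was the highest and control replicate 2 lay under cKO replicate 1, so the groups overlapped. Its log2 fold change was -1.43 with a wide interval (-2.44 to -0.43) and adjusted p = 0.55 by edgeR. Counting error alone was 15.1% to 37.8% per library, and the interval takes in both the value of Myrf and that of Olig2. Without control replicate 3 the value was -0.96 (edgeR adjusted p = 0.894). Its exons overlap Inpp5a on the opposite strand by 246 bp, and Inpp5a was at 34.1 to 37.9 CPM in every library, far above Nkx6-2. The strand setting of the counting is not known, so the level of Nkx6-2 is less certain.

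St18 (ENSMUSG00000033740, chromosome 1, 6487231 to 6860940, plus strand), a zinc-finger factor of the Myt1 family, was not called. Its values were 7.39, 7.78 and 11.2 CPM in controls and 7.01, 7.27 and 6.54 CPM in cKO. The groups did not overlap, though the nearest libraries differed by less than their counting error and control replicate 3 alone was far above the rest. The log2 fold change was -0.35 (interval -0.71 to 0.02, edgeR adjusted p = 0.816) and became -0.14 without control replicate 3.

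Zfp536 (ENSMUSG00000043456, chromosome 7, 37472135 to 37773641, minus strand), a zinc-finger repressor also made by neurons, was at 25.4, 19.97 and 19.7 CPM in controls and 19.3, 22.3 and 21.1 CPM in cKO. The groups overlapped, with a log2 fold change of -0.05 (interval -0.30 to 0.20, edgeR adjusted p = 0.958). That interval excludes a fall of the size measured for Olig2. The sign of the value turned without control replicate 1 (0.075) and without cKO replicate 1 (0.001).

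Prrx1 (ENSMUSG00000026586, chromosome 1, 163245119 to 163313710, minus strand) is a homeodomain factor of mesenchymal cells that is linked to quiescence in oligodendrocyte precursors. Its values were 12.1, 11.96 and 10.2 CPM in controls and 14.2, 12.2 and 8.87 CPM in cKO, so the cKO mice held both the highest and the lowest library. Between the groups it had a log2 fold change of 0.04 (interval -0.32 to 0.39, edgeR adjusted p = 0.981), negative without control replicate 3 or cKO replicate 1 or 2 (-0.12 to -0.002). Fibroblasts also express Prrx1: 10 of 11 fibroblast genes had a positive log2 fold change (median 0.34, none called), and their sum was 385, 377 and 273 CPM in cKO against 232 to 246 CPM in controls. Pericyte genes summed to 277, 263 and 192 CPM in cKO and 198 to 226 CPM in controls. Both sums were lowest in cKO replicate 3 among the cKO mice, as was Prrx1; their part in its level was not tested.

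Per gene length, in the deposited FPKM, the order of levels in controls was led by Olig1 (71.0 ± 5.50, SD, n = 3 mice) and Olig2 (21.9 ± 1.31), followed by Zfp536 (4.70 ± 0.71). Myrf (3.02 ± 0.425) and Nkx2-2 (2.96 ± 0.41) overlapped each other, as did neighbours in the order of Zfp488 (1.96 ± 0.456), Prrx1 (1.75 ± 0.18) and St18 (1.49 ± 0.34). Nkx6-2 was lowest at 0.682 ± 0.341 FPKM. In cKO the first 3 places were the same, with Olig1 at 47.6 ± 9.58, Olig2 at 14.4 ± 1.91 and Zfp536 at 4.50 ± 0.271 FPKM. Myrf moved from place 4 to place 7 (0.946 ± 0.042), below Prrx1 (1.80 ± 0.44), Nkx2-2 (1.42 ± 0.315) and St18 (1.18 ± 0.0749), and did not overlap its neighbours St18 and Zfp488 (0.615 ± 0.0642). FPKM uses 1 length per gene, so a change of isoform would alter a level. The length used was shorter than the merged GENCODE M21 exons for Myrf (5674 against 8562 bp), Olig2, Nkx2-2, Zfp536, St18 and Prrx1. For Olig1, Nkx6-2 and Zfp488 both lengths were equal. The order between genes thus depends on the lengths chosen.

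Each factor was also set against Olig2 in the same library, a ratio that does not depend on library scaling. Myrf counts were 33.8%, 26.9% and 35.4% of the Olig2 counts in controls, and 13.6%, 14.2% and 19.0% in cKO mice. Every cKO mouse was below every control, a difference of -1.05 on the log2 scale (exact two-sided permutation p = 0.1, the smallest that 3 mice against 3 can give, and 0.2 after Benjamini-Hochberg adjustment over the 8 ratios). Zfp488 was at 16.8%, 11.5% and 19.2% of Olig2 in controls and 7.77%, 6.57% and 8.52% in cKO, a log2 difference of -1.03 with the same p-values and no overlap.

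For Olig1 the proportion to Olig2 overlapped between the groups. It was at 295%, 277% and 288% of the Olig2 counts in controls and 323%, 279% and 276% in cKO, a log2 difference of 0.02 (exact permutation p = 0.9). Prrx1 and Zfp536 were higher relative to Olig2 in all cKO mice than in all controls, by 0.63 and 0.57 on the log2 scale (exact permutation p = 0.1 for each, adjusted 0.2), while their own levels were not called. Olig2 itself was lower in cKO (log2 fold change -0.61), so a gene of unchanged level rises on this ratio. Nkx2-2 (-0.46), Nkx6-2 (-0.77) and St18 (0.30) overlapped between the groups on this ratio (exact permutation p = 0.2, 0.4 and 0.4). No ratio passed a threshold of 0.05, which this design cannot reach.

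**Figure D3:**
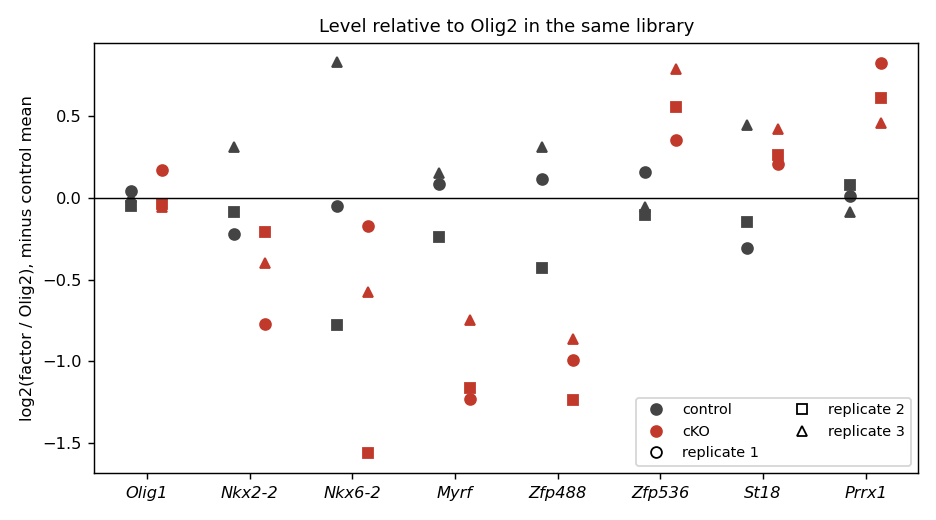
Log2 ratio of each factor's count to the Olig2 count of the same library, minus the mean of the controls (y axis), for 6 libraries per factor (grey control, red cKO, shapes are replicates). Myrf and Zfp488 lie below the controls in all 3 cKO mice, Zfp536 and Prrx1 above, and Olig1 near 0.

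The genes whose profile over the 6 libraries was most like that of a called factor were found among 15241 genes by the root mean square distance of centred log2 CPM. For Olig2 they were Caskin2 (distance 0.057), Olig1 (0.079) and S100a1 (0.082). For Myrf they included Bfsp2 (0.089) and the plexin gene Plxnb3 (0.137). For Zfp488 they were Myrf itself (0.15), Bfsp2 (0.158) and Ugt8a (0.182), an enzyme gene of galactolipid synthesis. Of these, Bfsp2 (log2 fold change -1.56, edgeR adjusted p = 0.0678) and Olig1 were not called. The distances share the libraries and the group difference, and are given as a description.

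Of 19 other factors of the lineage, all tested, 1 fell and none rose: Sox10, the partner of Myrf at myelin genes, with -1.41 on the log2 scale (edgeR adjusted p = 3.06e-06). It was at 47.6, 41.7 and 44.8 CPM in controls and 16.8, 17.1 and 16.5 CPM in cKO. Sox8 and Sox4, which each overlap a gene on the opposite strand, were at -0.63 (adjusted p = 0.0501) and -0.26 (0.55). Over all tested genes, 0.207% were called lower and 0.059% higher. The median over the 19 was -0.12, against -0.0007 over all tested genes. The list was chosen with earlier results of these data known, so its counts are no independent evidence.

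Among 14 relatives of the 9 factors, 8 were tested and none was called (edgeR; median log2 fold change 0.09). Myt1, the founding member of the family of St18, had the smallest p of them, at 57.3, 52.5 and 47.8 CPM in controls and 39.4, 44.8 and 44.0 CPM in cKO (log2 fold change -0.30, adjusted p = 0.351). Its neuronal relative Myt1l was at 0.12 and Prdm8, a relative of Zfp488, at 0.16. Bhlhe22, a neuronal relative of the Olig genes, was at -0.01, and Nkx2-1, a relative of Nkx2-2 made by ventral forebrain neurons, at 0.05. Prrx2 was at -0.04. Untested for low counts were Olig3, Bhlhe23, Nkx2-4, Nkx2-9, Nkx6-1 and Nkx6-3.

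Genes that mark the stages in which the factors act were called lower in part. Of 19 tested myelin genes 6 fell (median log2 fold change -0.51), among them Mbp (-1.26), the connexin gene Gjc3 (-1.75) and Ugt8a (-1.45). The log2 fold change was negative in 14 of the 19 and positive in 5, and the highest was that of Ermn, a cytoskeletal gene of mature oligodendrocytes that overlaps Galnt5 on the opposite strand (0.38, not called). The sum of the myelin genes was 716, 611 and 787 CPM in controls and 334, 379 and 372 CPM in cKO. Control replicate 2 was the lowest control in this sum, as it was for Myrf and Zfp488. The median was -0.22 without control replicate 3. Of 14 tested premyelinating genes 7 fell and 13 were negative (median -0.65). Bcas1 was at -2.25, the phosphodiesterase gene Enpp6 at -2.10 and Sirt2 at -0.63. Bcas1 and Sirt2 overlap genes on the opposite strand. Gpr17 and Lims2, both among the 7, overlap each other on opposite strands. Their calls may not be independent, as the strand setting is not known. Of 15 tested precursor genes 4 fell and 14 were negative (median -0.30), with C1ql1 at -1.72, Neu4 at -2.47 and Tnr, which overlaps Gm38039 on the opposite strand, at -0.57. The precursor sum was 1503 to 1563 CPM in controls and 1185 to 1313 CPM in cKO, without overlap. Of all tested genes, 0.207% were called lower. None of these 3 lists had a gene called higher, where 0.059% of all tested genes were. The 3 lists were chosen with earlier results of these data known, so their counts are no independent evidence.

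No gene of the astrocyte, neuron, microglia, fibroblast, pericyte, endothelium, striatum, thalamus, hypothalamus or midbrain and hindbrain lists was called in either direction by edgeR. Microglial genes were positive in 10 of 10 (median 0.47), at 463 to 566 CPM in sum in cKO and 301 to 450 CPM in controls; their part in the factors' lower levels was not tested. The medians of the astrocyte and neuron lists were 0.003 and 0.009. The thalamus and hypothalamus medians were -0.44 and -0.52 with control replicate 3 and 0.08 and 0.10 without it, and that of the midbrain and hindbrain was -1.43 with it and -0.32 without it. The striatum median was 0.28 with that library and -0.14 without it. Nkx2-2, Nkx6-2, Zfp488 and St18 were highest in that same library. Without it Nkx2-2 was at -0.94 (edgeR adjusted p = 0.0878), and 3 of the 9 factors were called lower, where 0.256% of its tested genes were.

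**Figure D4:**
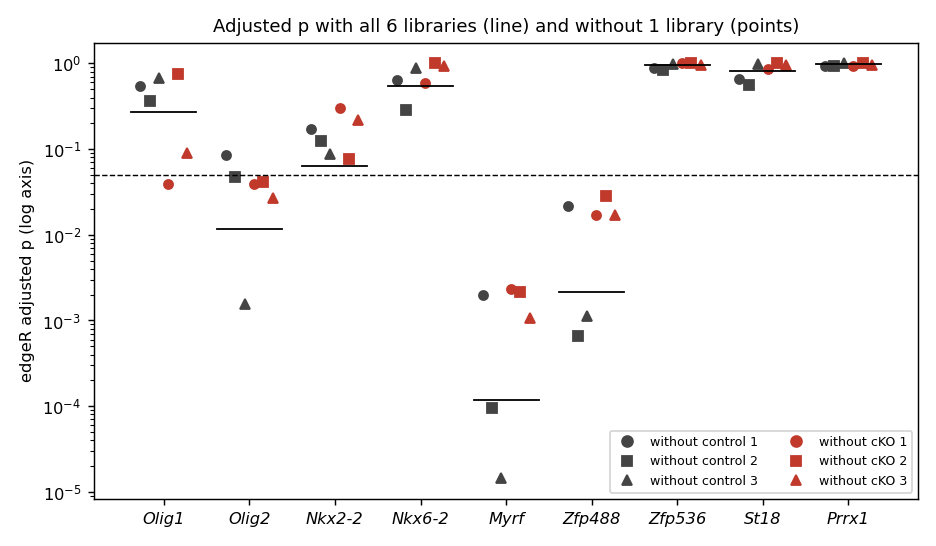
Adjusted p of each factor by edgeR (log axis, dashed line at 0.05) with all 6 libraries (black line) and with each library left out (points, coloured by the group of the omitted library). All points of Myrf and Zfp488 lie under 0.05, 1 point of Olig2 lies above it, and 1 point of Olig1 lies below it.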

How the data were processed

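RNA was selected on poly-T beads before directional library preparation, per the labels' protocols. The submitters' processing notes name CASAVA, STAR 2.5, HTSeq 0.6.1, DESeq and mm10, with no roles. Neither strand setting nor annotation release is given in the sources used here. The deposited read counts are whole numbers per gene. The deposited FPKM values equalled count over 1 gene length and the library total (length whole within 0.01 bp for 100% of values), so they are the same measurement. Of 35275 identifiers, 785 had no name and took 0.119% to 0.130% of a library's counts.

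Counts were tested with edgeR 4.0.16 in R 4.3.3: filterByExpr (minimum count 10, total 15), TMM scaling, robust quasi-likelihood test of 3 cKO against 3 control libraries, and Benjamini-Hochberg adjustment over 16938 genes, called under 0.05. The script recovered known changes in simulated counts. The changes simulated were all larger than those of Olig1 and Olig2, so recovery at that size was not checked. Alternatives used limma 3.58.1 and DESeq2 1.42.0. Counting error is for Poisson counts and covers counting only. No 2 libraries agreed within sampling noise (chi-square per degree of freedom at least 4.34).

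Genes were named by a fixed rule: the 9 factors, Parp1, the 3 nearest profiles of each called factor, and the 3 smallest p-values of each list; of the lists outside the lineage and the factors' relatives, counts and medians are given instead, 1 gene the rule takes is not reported here, and any further gene was picked with its values in view. The members and lists were chosen with earlier results of these data known.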

Additional observations from a re-analysis of the deposited data

How the results depend on the processing

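The 9 factors called lower numbered 5 with DESeq2, 1 in each of the 3 limma fits of FPKM, 3 or 4 under the other alternatives, and 2 to 4 when a library was left out. Over all genes, 35 were lower and 10 higher, and the lower count became 61 without a filter, 62 with DESeq2, and 20, 20 and 18 by limma on log2(FPKM + 1), log2(FPKM + 0.1) and unfiltered log2(FPKM + 1). For these 5 the higher count became 50, 51, 4, 4 and 3, and it was 17 with limma-voom and 6 without robust dispersion. Leaving out 1 library gave 24 to 44 lower and 4 to 19 higher genes. With the replicate number as a block, 5 genes were higher and 27 lower (0.159% of tested genes), 4 of the factors among them, Olig1 in addition (adjusted p = 0.0269). Same-numbered mice did not deviate together over all tested genes (correlations -0.011, -0.058 and -0.008), which cannot exclude shared litters or days. The labels do not say that a number marks a pair, so the numbers are not taken as pairs. The value of Prrx1 was -0.002 with limma-voom and ranged from -0.12 to 0.20 without a library, and that of Zfp536 from -0.12 to 0.075. Without a library, list medians ranged from -0.58 to -0.22 (myelin), -0.70 to -0.54 (premyelinating), -0.38 to -0.28 (precursor), -0.63 to 0.076 (thalamus), -0.71 to 0.10 (hypothalamus) and -1.83 to -0.32 (midbrain and hindbrain). Nkx6-2 did not reach a mean FPKM of 0.5 and was not tested by limma with that filter. Nor was it tested by edgeR with a filter at a mean of at least 1 CPM. Depth limits Nkx6-2 most, with 7 to 44 counts per library.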

Other observations

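Several close relatives of the 9 factors were near the limit of detection, and their counts are given as values. Nkx2-4, a homeodomain gene of the hypothalamus, had 40 counts in control replicate 3 and 0 in each of the other 5 libraries. Olig3, the third Olig gene, had 6 counts in control replicate 3 and at most 2 in any other library. Nkx6-1, a relative of Nkx6-2, had 6, 4 and 4 counts in controls and 2, 2 and 1 in cKO. Nkx2-9 had at most 1 count and Nkx6-3 at most 2 in any library. Myrfl, the relative of Myrf, had 7 to 24 counts per library, at 0.54 on the log2 scale (95% confidence interval -0.50 to 1.59, edgeR adjusted p = 0.893). Among the other lineage factors, Tcf7l2 was not called (log2 fold change -1.07, interval -3.15 to 1.02, edgeR adjusted p = 0.879); the thalamus also expresses it, and its value in control replicate 3 was 144 CPM.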
